A study of Homo sapiens with 4 samples.

Results

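ELF5 is an ETS-family transcription factor, and its peaks are described here in 6 windows of the genome that hold 8 genes of milk production and of the milk-producing alveoli: CSN1S1, CSN2, CSN3, LALBA, LTF, XDH, BTN1A1 and KIT. The windows held 18 of the 115384 ELF5 peaks of the authors' deposited list. The members were chosen by position only: a peak was counted if its summit, the base of highest signal, fell inside a window. The 3 casein genes share a window of 410 kb on chromosome 4, and the other windows are 80 kb at LALBA, 120 kb at LTF, 165 kb at XDH, 70 kb at BTN1A1 and 170 kb at KIT. Peaks are placed on hg19, with bases counted from 1.

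The cells were T47D, an established human luminal A breast cancer line of epithelial cells, grown in RPMI with 10% serum and insulin and, per the labels, without treatment. The labels name no prolactin or other lactogenic hormone and no genetic change. ELF5 chromatin immunoprecipitation followed by sequencing (ChIP-seq) was done in 3 replicates, beside 1 input sample of chromatin without immunoprecipitation, and the data are 1 peak list without values per replicate. The labels leave unsaid whether the replicates were separate cultures, and their protocol text speaks of antibodies to factors other than ELF5, although each ChIP sample has its own antibody entry. No spread between replicates could therefore be given, no sample group could be tested against another, and every comparison below is a description of this list.

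ELF5 drives the differentiation of luminal progenitor cells into alveolar cells during pregnancy, and works beside the prolactin receptor and STAT5, which switch on milk genes. Caseins, the products of CSN1S1, CSN2 and CSN3, form the protein micelles of milk. LALBA encodes the regulatory subunit of lactose synthase, and LTF encodes lactoferrin, an iron-binding antimicrobial protein. XDH, the xanthine oxidoreductase gene, and BTN1A1, the butyrophilin gene, encode partners in the secretion of milk fat droplets. KIT is the receptor of stem cell factor and a surface marker of luminal progenitors. Which of these genes were expressed in the cells was not analysed here.

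ETS factors bind DNA at a GGAA core, so the 250 bases before the starts of the 8 genes were read for these letters on both strands (GGAA or TTCC). The sequences are RefSeq's on GRCh38.p14, a build whose positions cannot be set against the hg19 peaks. The table gave 11 starts for the 8 genes, with 3 for LTF and 2 for LALBA, numbered here from 5′ to 3′ along the gene. Sequences at 4 genes are printed to show the range, from a casein and LALBA to LTF and KIT. For LALBA and LTF the start with the TATA-like letters ATAAA or TATAA in the 50 bases before it was taken. Each runs 5′ to 3′ on the strand of the gene, with every GGAA or TTCC in capitals and the last base next to the start. They lie at chr4:69965729-69965978 (minus strand, CSN2), chr12:48570047-48570296 (minus strand, LALBA start 2), chr3:46464906-46465155 (minus strand, LTF start 2) and chr4:54657707-54657956 (plus strand, KIT).
CSN2: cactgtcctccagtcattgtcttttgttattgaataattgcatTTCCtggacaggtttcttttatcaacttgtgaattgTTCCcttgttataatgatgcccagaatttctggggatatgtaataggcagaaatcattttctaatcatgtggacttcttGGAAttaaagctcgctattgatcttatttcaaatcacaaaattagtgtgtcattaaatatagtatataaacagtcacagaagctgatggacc
LALBA start 2: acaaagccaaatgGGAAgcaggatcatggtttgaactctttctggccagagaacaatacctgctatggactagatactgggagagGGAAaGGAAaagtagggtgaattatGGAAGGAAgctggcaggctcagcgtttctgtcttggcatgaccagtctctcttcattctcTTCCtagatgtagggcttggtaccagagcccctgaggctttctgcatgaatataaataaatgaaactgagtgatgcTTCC
LTF start 2: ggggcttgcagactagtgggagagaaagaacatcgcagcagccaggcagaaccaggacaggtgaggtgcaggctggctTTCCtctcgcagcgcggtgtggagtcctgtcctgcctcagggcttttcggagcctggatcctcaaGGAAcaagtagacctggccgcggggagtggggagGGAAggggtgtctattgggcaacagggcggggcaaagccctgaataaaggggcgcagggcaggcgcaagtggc
KIT: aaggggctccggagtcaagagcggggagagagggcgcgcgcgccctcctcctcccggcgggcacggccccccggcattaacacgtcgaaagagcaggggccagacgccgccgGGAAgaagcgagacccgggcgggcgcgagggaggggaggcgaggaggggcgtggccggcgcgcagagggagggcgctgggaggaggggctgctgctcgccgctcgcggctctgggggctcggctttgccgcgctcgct

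All 11 starts held GGAA, and so did 92.7% of 35116 promoters of the same length, so its presence does not set these genes apart. The number of matches ran from 1 at KIT to 9 at LTF start 1, beside a median of 3 over all promoters. CSN2 held 3, LALBA start 2 held 7 and LTF start 2 held 3. No start held the longer ETS letters CCGGAA, which 14.5% of all promoters hold. The letters AGGAAG, which contain GGAA, were found at 5 of the 11 starts and in 28.7% of all promoters. These were LALBA start 2, LTF starts 1 and 3, XDH and BTN1A1. AGGAAG was absent from the 250 bases before LALBA start 1, LTF start 2 and the CSN1S1, CSN2, CSN3 and KIT starts. The palindromic letters TTCNNNGAA, which STAT factors bind, were searched after the data had been seen. They stood at CSN1S1, CSN2 and LTF start 3, and in 6.57% of all promoters. At CSN2 the match began 97 bases before the start and read TTCTTGGAA, so it overlaps the GGAA that begins 92 bases before the start. Base composition differed widely between these promoters, from 30.0% G and C at CSN3, 30.4% at CSN1S1 and 34.0% at CSN2 to 76.4% at KIT, beside a median of 58.0% over all promoters.

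Peaks were present in 4 of the 6 windows, 8 at LTF, 6 at BTN1A1, 3 at the caseins and 1 at KIT, and there was none at LALBA or XDH. The authors' fold, the ChIP signal at the peak over the local background, ran from 2.30 to 24.0 in the 18 peaks with a median of 3.92, beside 3.66 over the whole list. Strong peaks are those in the highest 10% of folds of the whole list, which begin at 11.99. The windows held 3 strong peaks of 18, or 16.7%, against 10.0% of the list, and with so few peaks this share is near the background. All 3 were in the BTN1A1 and LTF windows. The members nearest to the limit were at 15.7 above it and 6.16 below it. The authors' q was under 0.05 for 16 of the 18 peaks, or 88.9%, against 87.5% of the list.

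**Figure D1:**
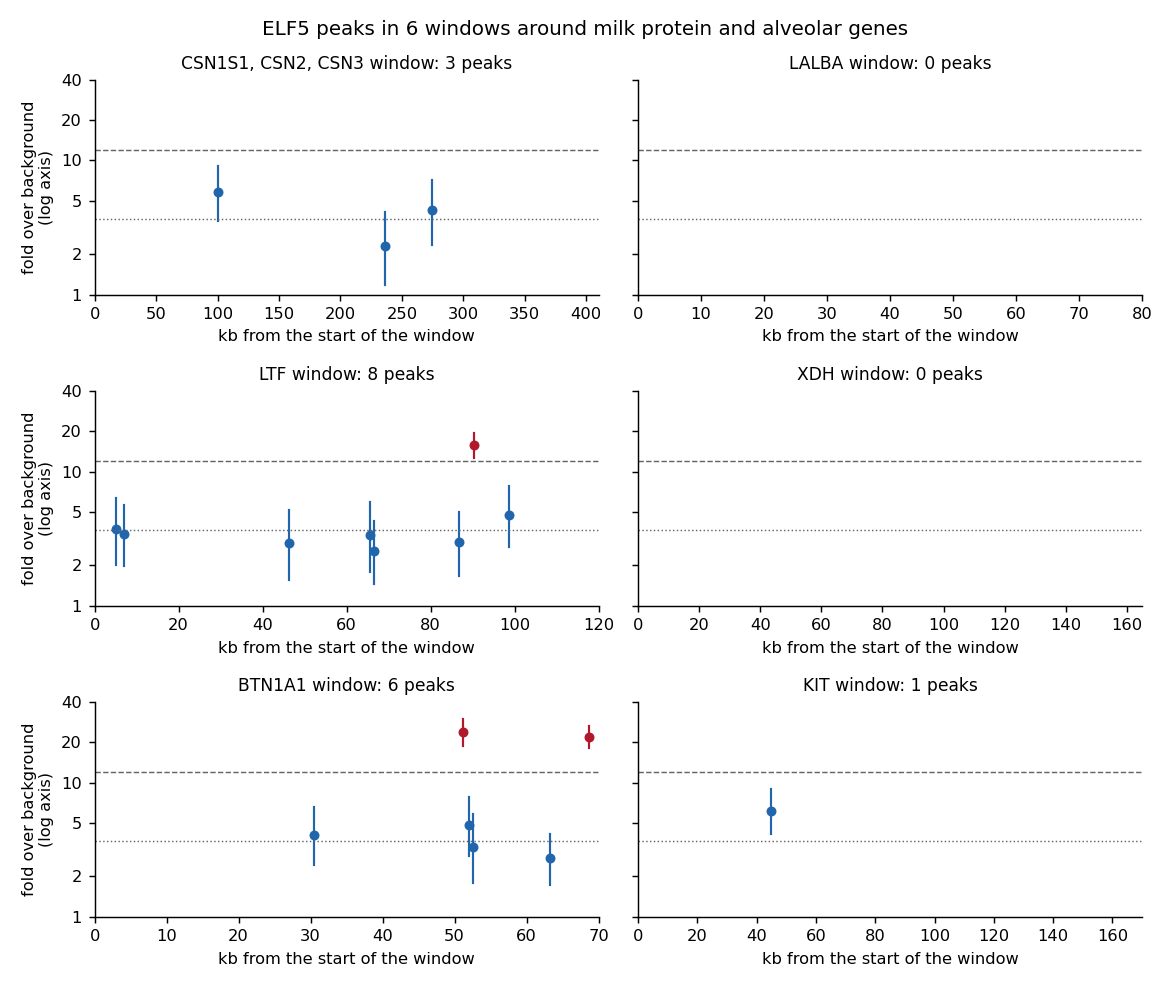
Fold over local background (log axis) of each ELF5 peak against its distance in kb from the start of its window, with 1 panel for each window. Vertical lines are exact Poisson 95% counting intervals, red marks strong peaks and blue the others, the dashed line is the fold of 11.99 at which strong peaks begin and the dotted line the list median of 3.66. Red points stand only in the LTF and BTN1A1 panels, and the LALBA and XDH panels are empty.

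Most of these folds rest on few fragments. The number of fragments stacked at a peak, its pileup, was recovered from the authors' fold and p, and had a median of 14 in the 18 peaks and 16 in the list. It ran from 9 to 26 in the 15 peaks that were not strong and from 75 to 120 in the 3 that were. Backgrounds below are in scaled fragments, to be set against 0.910 times the pileup. A fold is that scaled pileup plus 1, over the background plus 1, so pileup over background does not give it. The 95% interval beside a fold is the exact Poisson interval of its pileup, takes the background as known, and covers counting error only. They lay wholly above the list median of 3.66 in 4 peaks, the 3 strong ones and the KIT peak, and included it in the other 14.

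The casein window, chr4:70750001-71160000 in band 4q13.3, held 3 peaks spread over the 410 kb, none of them strong. The highest, at chr4:70849942-70850100, had a fold of 5.85 (95% counting interval 3.56 to 9.16), a pileup of 17 over a background of 1.81 and a q of 3.63e-08. A higher fold was found at 23.1% of the list, while 97.2% of peaks with a fold within 10% of it were wider than its 159 bp. The second lay 136 kb further along, at chr4:70986108-70986304, and had the lowest fold of all 18 peaks, 2.30 (1.19 to 4.14), with a q of 0.283. The third, at chr4:71024475-71024609, had a fold of 4.24 (2.36 to 7.14) and the list's smallest width, 135 bp. The fold of the second lay below the interval of the first, although the intervals of these peaks overlapped. The fold of the third lay inside the interval of the first. Between CSN2 and CSN3 the RefSeq annotation places 6 protein-coding genes, STATH, HTN3, HTN1, PRR27, ODAM and FDCSP, several of them genes of secreted salivary or dental proteins. Which of all these genes each peak is nearest to was not analysed, since no annotation of hg19 was used.

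No strong peak lay in the casein window. The nearest was 394.2 kb beyond its right edge, at chr4:71553645-71554550, with a fold of 38.8 (32.4 to 46.2), and the nearest on the left was 1534.2 kb away. Of 6829 consecutive stretches of 410 kb along chromosomes 1 to 22 and X, 91.4% held a peak and 54.6% a strong peak, with a median of 7 peaks. Among the 991 such stretches in bands of the same dark Giemsa class, gpos75, the median was 4 peaks and 38.1% held a strong peak. The window's 7.32 peaks per Mb were fewer than the 38.0 of chromosomes 1 to 22 and X, and were close to the 9.14 of its own band.

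LALBA lay in a long gap within a stretch otherwise dense in peaks. Its window, chr12:48920001-49000000 in band 12q13.11, held no peak, although the band held 158 peaks, at 58.5 per Mb, of which 24 were strong. The peak-free stretch around the gene ran for 331.3 kb, from a summit 175.3 kb left of the window to one 76.0 kb right of it. It was the longest of the 157 distances between neighbouring summits in the band, whose median was 3.9 kb and whose second longest was 234.9 kb. Over the whole list 0.942% of such distances were longer. A distance that holds an empty window is longer than the window's 80 kb, and long distances cover more positions than short ones. Neither the rank nor this share therefore measures how often a window falls in so long a stretch. The stretch was bounded on the left by a strong peak at chr12:48743972-48745302, with a fold of 30.0 (25.5 to 35.2), and on the right by a peak at chr12:49075523-49076473, with a fold of 7.74 (6.03 to 9.80). An empty window of this size was not unusual in itself, since 62.8% of stretches of 80 kb held a peak and 21.9% a strong peak. In unstained bands, the class of 12q13.11, 72.6% held a peak. In the RefSeq table the neighbours of LALBA are OR5BS1, an olfactory receptor gene, and LOC124902928.

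The XDH window, chr2:31515001-31680000 in band 2p23.1, was also without a peak. The nearest summits were 52.2 kb to its left, in a peak with a fold of 3.91 (2.13 to 6.72), and 32.4 kb to its right, in a peak with a fold of 3.67 (2.0 to 6.30). Both folds had intervals that include the list median. A strong peak of fold 12.4 (8.93 to 16.7) stood 58.1 kb left of the window, at chr2:31456682-31457153, and on the right the nearest was 556.2 kb away. The peak-free stretch of 249.6 kb was the second longest of 38 in its band, which as a whole held 18.6 peaks per Mb. It holds the empty window of 165 kb and so was bound to be long. Among stretches of 165 kb, 77.7% held a peak and 34.9% a strong peak, and in unstained bands such as 2p23.1 the shares were 85.4% and 46.0%. An empty window means only that no peak there entered the authors' list, whose lowest pileup over a background of at most 2 fragments was 7 and over a background of 4 to 5 fragments was 10.

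**Figure D2:**
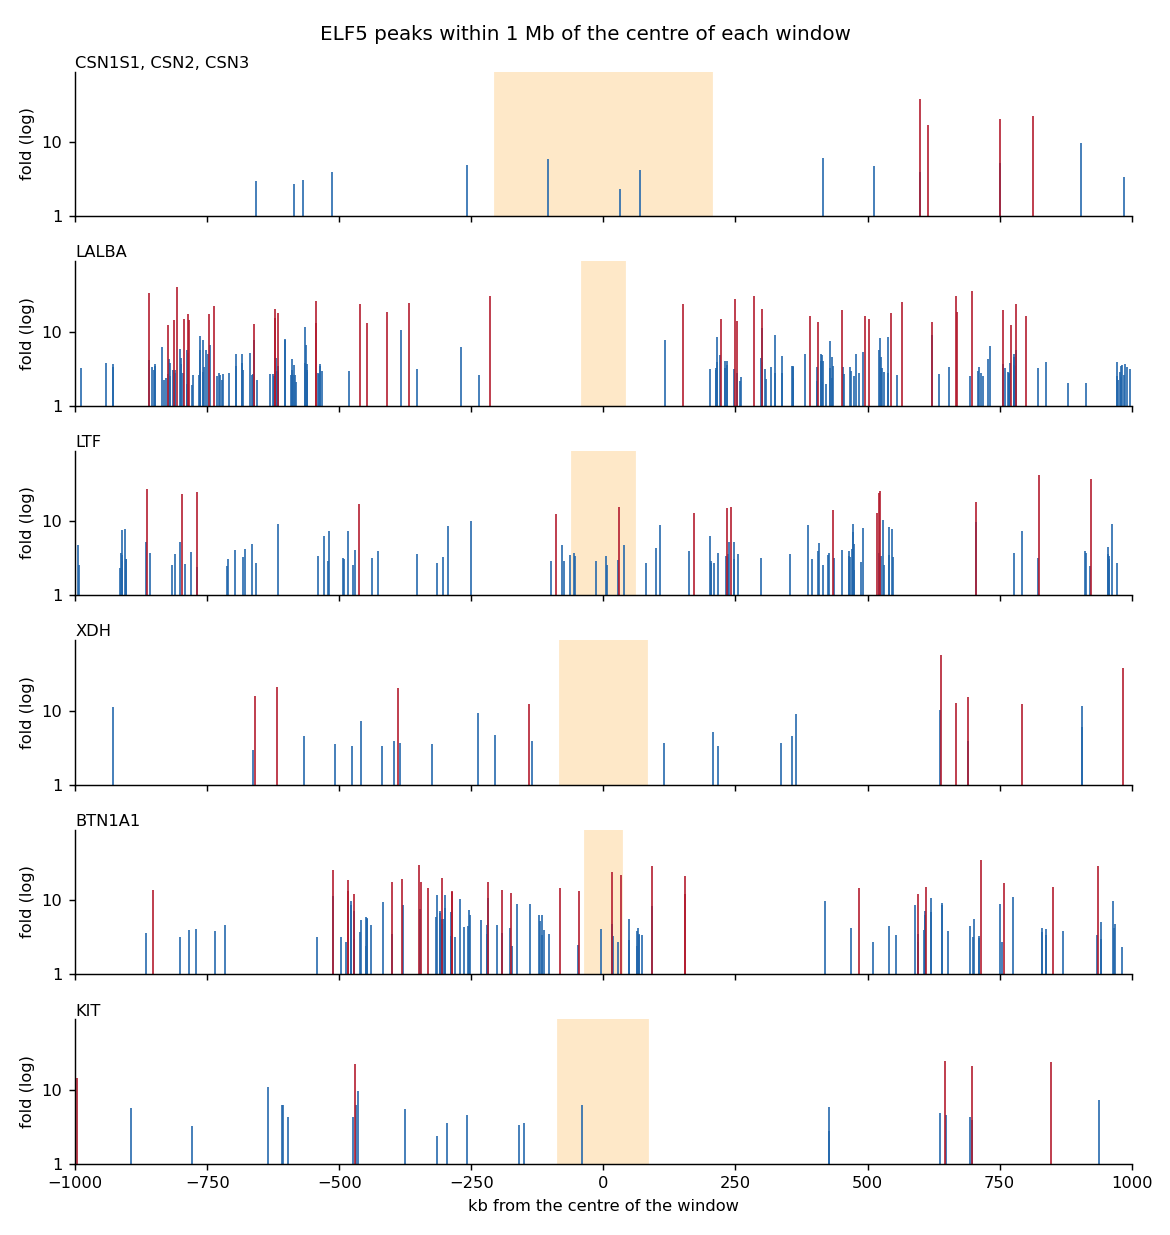
ELF5 peaks within 1 Mb on each side of the centre of each window, as vertical lines whose height is the fold over local background (log axis), against the distance from the centre in kb. Red lines are strong peaks, blue lines the others, and the shaded strip is the window. The LALBA strip lies in a gap between dense groups of peaks, with 226 peaks in its panel, whereas the casein, KIT and XDH panels hold 18, 28 and 32.

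The LTF window, chr3:46440001-46560000 in band 3p21.31, held the most peaks of the 6, but 7 of its 8 were not strong. The exception, at chr3:46530229-46530692, had a fold of 15.7 (12.6 to 19.3), a pileup of 85 over a background of 4 and a q of 4.20e-67. It was 464 bp wide, beside a median of 818 bp over all strong peaks of the list. Among peaks with a fold within 10% of its own, the median was 775 bp and 77.7% were wider. Its summit lay 29.6 kb from the right edge of the window, on the side where the RefSeq table places RTP3. LTF is on the minus strand, so this is also the side before its own starts. Whether the peak belongs to LTF was not analysed. The interval of its fold did not overlap that of any of the other 7.

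The other LTF peaks had folds from 2.57 to 4.75 and pileups from 10 to 14. The highest of them, at chr3:46538394-46538730, had a fold of 4.75 (2.76 to 7.74) and a q of 2.54e-05. Of these, 4 stood in 2 close pairs. The first pair was 1.84 kb apart, at chr3:46445090-46445296 with a fold of 3.72 and at chr3:46446982-46447158 with a fold of 3.43, near the left edge, on the side of CCRL2, a chemokine receptor-like gene. The other pair was 1.00 kb apart near the middle of the window, at chr3:46505405-46505541 with a fold of 3.37 and a q of 0.0073, and at chr3:46506374-46506650 with a fold of 2.57 and a q of 0.0951. The remaining 2, at chr3:46486201-46486335 and chr3:46526645-46526881, had folds of 2.94 and 2.98. The intervals of all 7 overlapped and included the list median.

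The density at LTF was 66.7 peaks per Mb, above the 38.0 of chromosomes 1 to 22 and X but below the 82.7 of its own band. Among stretches of 120 kb, 71.7% held a peak and 28.8% a strong peak, and in unstained bands the shares were 80.5% and 38.1%. The 8 peaks compare with medians of 2 in all such stretches and 3 in those of unstained bands.

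The BTN1A1 window, chr6:26470001-26540000 in band 6p22.2, was the shortest and carried the 2 highest folds of the 18 peaks. The first, at chr6:26520701-26521563, had a fold of 24.0 (18.9 to 29.9), a pileup of 75 over a background of 1.89 and a q of 3.68e-77. Only 2.95% of the list had a higher fold. The second, at chr6:26537506-26539105, had a fold of 22.04 (18.3 to 26.3), the largest pileup of the 18 peaks, 120, and a q of 1.45e-110. It was also the broadest, at 1600 bp, and 10.2% of peaks with a fold within 10% of it were wider. Its summit was 1.4 kb from the right edge of the window, on the side of HMGN4, the next gene in the RefSeq table and one that encodes a nucleosome-binding protein. Whether either of these 2 peaks belongs to BTN1A1 was not analysed. The fold of each of the 2 lay inside the interval of the other. Both folds were above the interval of the strong LTF peak, which ended at 19.3. Their own intervals began at 18.9 and 18.3, however, and so overlapped that of the LTF peak.

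Weaker peaks accompanied the first of these. At distances of 0.92 kb and then a further 0.61 kb stood chr6:26521878-26522207, with a fold of 4.84 (2.86 to 7.77), and chr6:26522326-26522630, with a fold of 3.34 (1.77 to 5.86), so that 3 of the 6 summits fell within 2 kb. The others were chr6:26500445-26500586, 30.5 kb from the left edge, with a fold of 4.11 (2.42 to 6.59), and chr6:26533104-26533238, with a fold of 2.74 (1.73 to 4.16) over the highest background of the 18, 6 fragments. All 6 had a q under 0.05. The density of 85.7 peaks per Mb was above the 57.8 of the band and the 26.0 of chromosome 6. The 28.6 strong peaks per Mb were above the band's 13.9, but rest on 2 peaks, 1 of them 1.4 kb from the window's edge. Among stretches of 70 kb, 59.6% held a peak and 19.9% a strong peak, and in unstained bands such as 6p22.2 the shares were 69.7% and 26.9%. Strong peaks also stood just outside, 11.5 kb to the left, with a fold of 13.4 (10.7 to 16.4), and 57.1 kb to the right, with a fold of 29.0 (24.1 to 34.8). The neighbours of BTN1A1 to the left in the RefSeq table, BTN2A1 and BTN3A3, are butyrophilin genes as well.

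**Figure D3:**
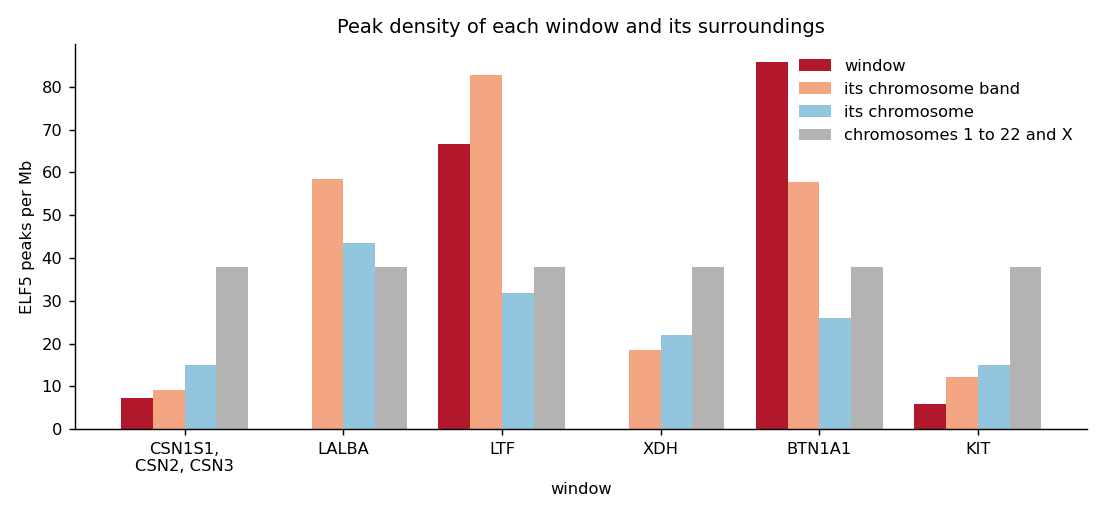
ELF5 peaks per Mb in each window (red), in its chromosome band (orange), on its chromosome (blue) and over chromosomes 1 to 22 and X (grey). The BTN1A1 bar, 85.7, is above all of its comparators, the LTF bar, 66.7, lies between its band and its chromosome, and the other windows lie at or below 7.32.

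The KIT window had 1 peak, which was wide for its fold, and whether it belongs to KIT was not analysed. It lay at chr4:55524598-55525323, 45.0 kb from the left edge of the window chr4:55480001-55650000 in band 4q12, and had a fold of 6.16 (4.11 to 8.92), a pileup of 26 over a background of 3 and a q of 1.03e-11. Its fold was the highest of the 15 peaks that were not strong, and 21.9% of the list had a higher one. It was 726 bp wide, against a median of 317 bp in the 5514 peaks of the list with a fold within 10% of it, of which 10.0% were wider. Its interval overlapped that of the highest casein peak and lay wholly below those of the 3 strong peaks.

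No other peak lay near KIT. The next summit to the left of the window was 66.1 kb away, in a peak with a fold of 3.59 (1.91 to 6.30), and the next to the right 341.4 kb away, with a fold of 5.79 (3.57 to 8.96). The distance of 466.4 kb from the KIT peak to that summit was the longest of 81 in the band, and 0.525% of those in the list were longer. It was taken as the longest distance touching the window, and 341.4 kb of it lay beyond the right edge. Long distances also cover more positions, so the rank and the share do not describe the KIT window alone. The nearest strong peaks were 385.6 kb to the left and 562.5 kb to the right of the window. Among stretches of 170 kb, 78.6% held a peak and 35.4% a strong peak, with a median of 3 peaks, or 5 in unstained bands such as 4q12. In the RefSeq table KIT lies between PDGFRA and KDR, which also encode receptor tyrosine kinases.

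**Figure D4:**
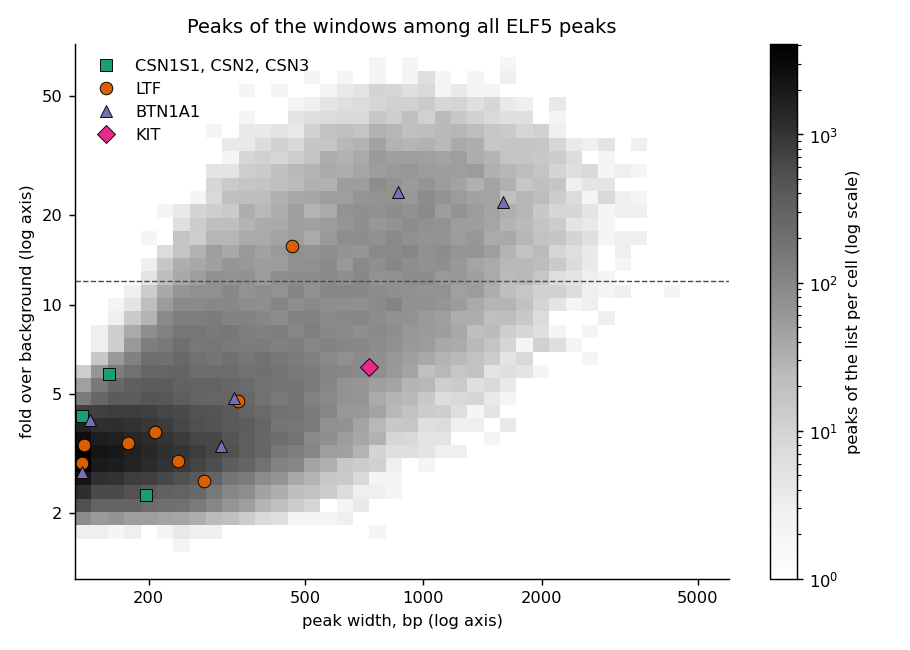
Width in bp and fold over local background of the 18 peaks, both on log axes, over a grey map of all 115384 peaks in the list. Squares, circles, triangles and the diamond are the casein, LTF, BTN1A1 and KIT windows, and the dashed line is the fold of 11.99. The KIT diamond, 726 bp at a fold of 6.16, lies right of the bulk of peaks of its fold, and the highest casein square, 159 bp at 5.85, lies at the left edge.

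Widths differed between the windows as well. The 3 casein peaks were 135 to 197 bp wide, beside a list median of 215 bp, and covered 0.120% of their window. Among peaks with a fold within 10% of theirs, 97.2% were wider than the first and 94.0% than the third. Only 34.9% were wider than the second, which was therefore not narrow for its fold. The BTN1A1 peaks had a median width of 317.5 bp and covered 4.82%, the LTF peaks 222 bp and 1.64%, and the KIT peak covered 0.427%. At the smallest width of the list, 135 bp, were 3 of the 18 peaks, beside 9.27% of the list. The local background under the peaks was low at the caseins, with a median of 1.81 fragments, the lowest value in the list, against 2.71 at LTF and 2.29 at BTN1A1 and 3 at the KIT peak. A fold is a ratio to this background, and the part of the background in the order of the folds was not tested. Over all 6 windows, 1015 kb in all, the density was 17.7 peaks and 2.96 strong peaks per Mb, against 38.0 and 3.80 over chromosomes 1 to 22 and X.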

How the data were processed

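ELF5 ChIP-seq of T47D cells was deposited as 1 narrowPeak list on hg19, a build named in the file headers and in the submitters' processing notes. The track name reads IDR and 1-3, and whether replicate 2 contributed is unclear. Aligner, peak caller, threshold, use of the input and pooling of replicates were not given in the sources used here. Per peak the authors deposited a score, a fold (a ratio to local background), a −log10 p and a −log10 q, used as given to describe and rank peaks within the list. The score is the whole part of 10 times the −log10 p in all 115384 rows of the authors' list.

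Read depth per sample is unknown. Pileup and background were recovered from fold and p with a scaling factor of 0.910, a pseudocount of 1 in the fold and a Poisson tail, which returned the listed −log10 p to within 0.001 at each of the 115384 peaks. A second pileup matched 95 peaks, none of them in the windows. On 2999 simulated peaks 100% of pileups were recovered. These peaks were made with the same formulas that the recovery inverts. They check the calculation only, and not which formulas the authors' peak caller used.

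Windows, members and lists were chosen with earlier results of these data known. All 8 genes and each peak in the windows were to be named, with the nearest peaks outside. Bands were those of circlize 0.4.16 in R 4.3.3. Stretches of a window's length were laid end to end from each chromosome's start, without those touching centromeric, variable or stalk bands. Promoter sequences and gene order were RefSeq's on GRCh38.p14, and TTCNNNGAA and the comparison of widths at like fold were added after seeing the data. Other pathway genes were not placed, as no hg19 annotation was used. Calculations ran in Python 3.11.15 with pandas 2.3.3, scipy 1.17.1 and numpy 2.4.6, and plots were drawn with matplotlib 3.10.9. Alternative thresholds, window edges, joined summits and motif letters were tried.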

Additional observations from a re-analysis of the deposited data

How the results depend on the processing

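Of 102 alternative values 78 stayed close to the main one (a count within 1.5 times, a median within the exact interval or range of its peaks), 23 moved and 1 changed direction. Many of the 78 were counts of 0 in windows without a peak or a strong peak. Stricter limits and narrower windows could not change these counts, so the 78 does not measure robustness. With −log10 q of 5 or more the windows held 6 peaks in place of 18, with 1 at the caseins, 1 at LTF and 3 at BTN1A1, and the 1 left at LTF had a fold of 15.7. With the highest 50% of folds, 10 peaks were left, 3 of them at LTF. Widening each window by 50 kb on both sides gave 38 peaks, with 16 at LTF, 17 at BTN1A1 and 1 at XDH, and 6 strong peaks, with 2 at LTF and 4 at BTN1A1. LALBA had no peak under any of the alternatives tried, of which only widening and counting any overlap could have added a peak. Narrowing by 10 kb left 1 strong peak at BTN1A1. With the strongest 5% in place of 10%, LTF had 0 strong peaks. The density at LTF was 1.75 times that of chromosomes 1 to 22 and X but 0.807 times that of its band, a change of direction. At BTN1A1 the ratio fell from 2.26 to 1.48 against its band. At the caseins it was 0.193 against all chromosomes, 0.801 against the band and 0.488 against the chromosome, and at KIT 0.155, 0.488 and 0.392. Of the 8 genes, 0 had CCGGAA and 4 had AGGAAG before a start, against 8 with GGAA. Leaving out replicates was not run, since the list holds no value per replicate. No paired analysis was possible because there are no values per replicate. Pileups of 9 to 26 limit the ranking of the peaks that were not strong.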
